A study of Homo sapiens with 6 samples.

Results

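The genes described here are 10 members of the NOTCH pathway: the receptors NOTCH1, NOTCH2 and NOTCH3, the ligands JAG1, JAG2 and DLL1, and the target genes HES1, HEY1, HEY2 and NRARP. They were chosen by gene symbol from a table of 58884 genes, and all 10 were found and passed the filter on low values, which 16701 genes passed. Messenger RNA was sequenced in 2 lines of human esophageal squamous cell carcinoma cells, with 3 libraries of each. KYSE450 is the parental line and carries wild-type NRF2. KEAP1null-KYSE450 cells descend from it and lost KEAP1 through CRISPR-Cas9 editing. KEAP1 is the adaptor that marks the transcription factor NRF2 for degradation, and its loss is a standard way to raise NRF2. Both lines grew in the same serum-containing medium and neither received a treatment. The edited line is 1 clone, so loss of KEAP1 and any other property of that clone cannot be told apart. The labels do not say whether the 3 libraries of a line came from separate cultures. The p-values therefore measure only the spread between these libraries, which may be technical.

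NOTCH receptors are single-pass membrane proteins that bind Jagged or Delta-like ligands on a neighbouring cell. Binding exposes the receptor to an ADAM protease and then to γ-secretase, and the released intracellular domain enters the nucleus. There it joins the DNA-binding protein RBPJ and a Mastermind-like coactivator at target genes such as those of the HES and HEY repressors. In stratified squamous epithelia, such as that of the esophagus, the pathway is known for promoting exit from the basal layer and differentiation.

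Sequences upstream of the targets that differed most between the lines, HEY2 and NRARP, are shown beside that of HES1, the most studied target, because target genes are reached through their regulatory DNA. Each runs from 250 bases before the RefSeq transcription start to 30 bases after it, in GRCh38.p14, read in the direction of the gene. They lie at chr6:125749382-125749661 on the plus strand for HEY2, chr9:137302242-137302521 on the minus strand for NRARP and chr3:194135898-194136177 on the plus strand for HES1. The window of HEY2 lies inside the gene span given below, which comes from another annotation (gencode v44) and begins before the RefSeq start. Capitals mark the letters TGGGAA, a core of the RBPJ site, or their reverse complement. Only these exact letters were searched, so an RBPJ site with other letters is not marked.
HEY2: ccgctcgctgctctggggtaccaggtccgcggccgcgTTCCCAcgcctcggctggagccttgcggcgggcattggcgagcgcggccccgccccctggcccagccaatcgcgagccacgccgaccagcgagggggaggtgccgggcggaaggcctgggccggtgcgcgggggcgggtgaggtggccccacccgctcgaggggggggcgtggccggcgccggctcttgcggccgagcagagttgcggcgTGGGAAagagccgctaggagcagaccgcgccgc
NRARP: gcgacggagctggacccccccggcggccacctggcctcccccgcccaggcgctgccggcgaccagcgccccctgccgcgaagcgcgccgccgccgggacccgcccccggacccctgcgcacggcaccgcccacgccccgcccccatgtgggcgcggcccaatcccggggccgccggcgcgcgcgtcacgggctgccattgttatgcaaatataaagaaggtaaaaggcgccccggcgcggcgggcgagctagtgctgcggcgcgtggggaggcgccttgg
HES1: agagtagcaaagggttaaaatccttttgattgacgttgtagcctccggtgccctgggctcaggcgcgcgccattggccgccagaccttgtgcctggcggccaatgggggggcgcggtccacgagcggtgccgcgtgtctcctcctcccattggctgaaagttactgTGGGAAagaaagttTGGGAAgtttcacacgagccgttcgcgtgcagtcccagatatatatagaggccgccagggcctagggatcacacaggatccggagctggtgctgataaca
HES1 held these letters at positions -84 and -70 from its start, both on the strand of the gene. HEY2 held them at -213 on the opposite strand and at -3 on its own. NRARP had no match to these letters in this window, which does not show that it lacks an RBPJ site. RefSeq windows were found for 8 of the 10 members, and the core, searched on both strands over 300 bases, occurred in 2 of these 8 and in 24% of 35116 windows of all genes. The letters TGACNNNGC, the core of the antioxidant response element bound by NRF2 with a small MAF protein, occurred in 0 of the 8 and in 13.3% of all windows. With no match to the second motif, no match to the first overlapped one. A match of letters is a description and does not show binding.

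The total of normalized counts per library lay between 54829313 and 57380170. Libraries of one line correlated at r of 0.984 to 0.989 across genes, and those of different lines at 0.924 to 0.936, as a description of values within these libraries. No 2 libraries agreed within sampling noise, with a chi-square per degree of freedom of at least 11.9 on reads recovered from the values. That lowest pair, KEAP1null-KYSE450 libraries 2 and 3, included a library whose recovered reads were not accepted, as described under processing. Among pairs of accepted libraries the lowest value was 41.9. The first library of each line gave higher values for long transcripts than the other two. In genes with a main transcript of over 8000 bases, its median deviation from the mean of the line was 0.16 (log2) in KYSE450 and 0.08 in KEAP1null-KYSE450. Libraries are numbered in the order of the table, and the columns carry no replicate number. KEAP1 itself did not separate the lines at the RNA level, with 5146 to 5760.4 normalized counts in KYSE450 and 4907 to 5737 in KEAP1null-KYSE450. NQO1, a standard NRF2 target, had 15681 to 17100 and 104116 to 110351. Squamous epithelial markers summed to 389142 to 530514 and 597290 to 745365 over 10 genes. KRT5 was the largest part, with 174377 to 250359 and 519548 to 648677. KRT14 had 2136 to 2699.5 in KYSE450 and only 30.45 to 41.8 in KEAP1null-KYSE450. Of these 10 genes, 2 (KRT5 and DSG3) were higher and 7 lower in KEAP1null-KYSE450 at the adjusted p alone. Over all genes tested the shares were 24.3% and 25.5%. Leukocyte markers summed to 5.59 to 23.2 and 15.7 to 35.3, with CD3E and LAPTM5 at or under 3 reads in every library. The fibroblast list summed to 622 to 856 and 351 to 436, nearly all of it COL1A1, with COL1A2, DCN and THY1 at or under 3 reads. The endothelial list summed to 2244 to 2814 and 1657 to 2084, nearly all of it EGFL7, with PECAM1 and TEK at or under 3 reads.

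Among the members, HEY2 and NRARP rose past both thresholds, an adjusted p under 0.05 and a log2 fold change of at least 1 in size. HEY1 and DLL1 rose at the adjusted p alone, and the 3 receptors, JAG1, JAG2 and HES1 did not pass the test. No member was lower by either criterion, and none was lower at an unadjusted p under 0.05. Past both thresholds, 2 of 10 members were higher and 0 lower, where 18.2% of all genes tested were called, 12.2% higher and 5.98% lower. At the adjusted p alone, 4 were higher and 0 lower, where 49.8% of all genes were called, 24.3% higher and 25.5% lower. In the same 4 members, and in no other, every KEAP1null-KYSE450 library was above every KYSE450 library, and in 0 members it was below. Over all genes the libraries of the lines did not overlap in 57.8%, with 28.4% higher and 29.3% lower. In edgeR and DESeq2 on 4 libraries 0 members were lower, but 2, NOTCH2 and JAG1, were lower at the adjusted p alone without the first KEAP1null-KYSE450 library and without the first library of both lines. Nothing particular to the members is read from these counts. The median log2 fold change of the members was 0.18, and that of all genes tested was 0.004. In bulk RNA, fewer cells that express a gene and less RNA per cell cannot be told apart.

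**Figure D1:**
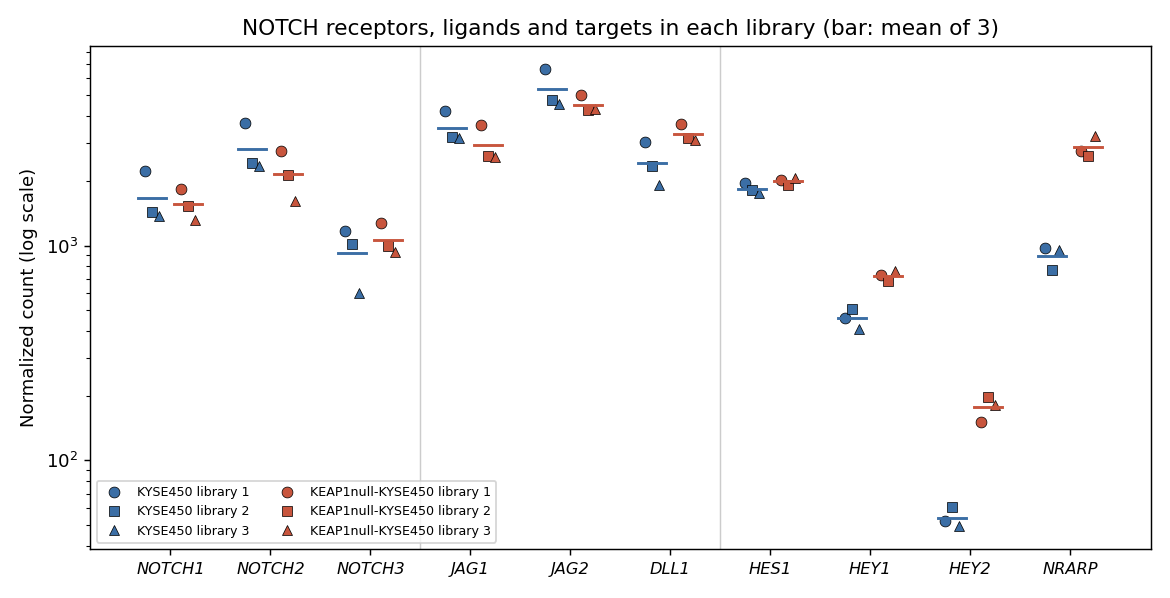
Normalized count (log axis) of each member in the 3 KYSE450 libraries (blue) and the 3 KEAP1null-KYSE450 libraries (red), with marker shape giving the library and a bar at the mean of 3. The red points of NRARP, HEY2, HEY1 and DLL1 all lie above the blue ones, while those of the receptors, JAG1, JAG2 and HES1 overlap.

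Of the target genes, NRARP and HEY2 changed most. NRARP, at chr9:137299631-137302271 on the minus strand of hg38, encodes a small ankyrin repeat protein that binds the active NOTCH complex and limits it, in a negative feedback loop. Its normalized counts were 973, 771 and 950.1 in KYSE450 and 2749.7, 2597.5 and 3245.5 in KEAP1null-KYSE450. The lowest edited library was above the highest parental library by a wide margin. The means were 898 ± 111 and 2864 ± 339 (SD, n = 3 each), a ratio of 3.19. The log2 fold change was 1.67 (SE 0.12, 95% interval 1.40 to 1.94, limma adjusted p = 3.8e-07, adjusted by Benjamini-Hochberg over all genes tested). It passed the test under all 19 other settings, with log2 fold changes from 1.48 to 1.78 and adjusted p between 3.3e-15 and 0.0019.

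HEY2, at chr6:125747664-125761269 on the plus strand, encodes a repressor of the basic helix-loop-helix family. It had 52.4, 60.6 and 49.4 normalized counts in KYSE450 and 151, 197 and 181 in KEAP1null-KYSE450. All of these are well above the floor of 3 reads, which lay between 2.77 and 3.21 normalized counts, but per kb of merged exons HEY2 had the lowest mean level of the members in both lines. Its means of 54.2 ± 5.82 and 176 ± 23.0 (SD, n = 3 each) gave a ratio of 3.25, and its log2 fold change was 1.68 (SE 0.22, 95% interval 1.20 to 2.16, limma adjusted p = 5.6e-05). Tested against a log2 fold change of 1 instead of 0, the difference missed the threshold with an adjusted p of 0.07. Over 19 other settings the adjusted p lay between 2.9e-05 and 0.07.

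HEY1, a related repressor, rose by less. Its normalized counts were 461, 504 and 409 in KYSE450 and 727, 687 and 761 in KEAP1null-KYSE450. The groups did not overlap, and the means of 458 ± 47.6 and 725 ± 36.8 (SD, n = 3 each) gave a ratio of 1.58. On the log2 scale the difference was 0.67 (SE 0.13, 95% interval 0.39 to 0.94, limma adjusted p = 0.0010), under the fold threshold.

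HES1, at chr3:194136148-194138732 on the plus strand, encodes the repressor most often used as a readout of the pathway. It had 1957, 1818 and 1751 normalized counts in KYSE450 and 2028, 1923 and 2061 in KEAP1null-KYSE450. One edited library lay under the highest parental library, so the groups overlapped. The 95% interval of its log2 fold change ran from -0.09 to 0.33 (limma adjusted p = 0.31). The difference between HES1 and the other targets was not itself tested.

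Other HES and HEY genes complete the family. HES4 had 384, 469 and 373 normalized counts in KYSE450 and 209, 281 and 359 in KEAP1null-KYSE450, and fell with a log2 fold change of -0.56 (limma adjusted p = 0.031, passed in 11 of 19 other settings, over adjusted p from 0.0062 to 1). The call was lost without the second KYSE450 library (adjusted p = 0.12), the first KEAP1null-KYSE450 library (0.12) or the second (0.071). HES4 was chosen for mention after its values were seen. HES2 was at 172.5 to 251 and 190 to 224, with a log2 fold change of -0.02 (adjusted p = 0.93). HES7 and HEYL were near the lower end of measurement. HES7 had 1.07, 25.3 and 9.32 normalized counts against 14.8, 14.3 and 17.2, so its log2 fold change of 0.99 (adjusted p = 0.32) rested largely on the first KYSE450 library and was -0.01 without it. HEYL had 36.4, 27.3 and 13.1 against 36.9, 26.5 and 25.2 (adjusted p = 0.60), and its log2 fold change of 0.29 turned to -0.11 without the third KYSE450 library and to -0.22 after quantile normalization. HES5 was not detectable at this depth, with at most 1.01 normalized counts.

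Levels can be compared between genes only per length. Per kb of merged exons, summed over the HES, HEY and NRARP genes, the targets reached 1755 ± 73.3 normalized counts in KYSE450 and 2562 ± 214 in KEAP1null-KYSE450 (SD, n = 3 each), with ranges of 1677 to 1822 and 2423 to 2808. HES1 made up 52.2%, 50.0% and 50.7% of that sum in KYSE450 and 40.1%, 38.5% and 35.6% in KEAP1null-KYSE450. NRARP made up 20.2%, 16.5% and 21.4% in KYSE450 and 42.4%, 40.6% and 43.8% in KEAP1null-KYSE450. The 2 genes thus traded places, since NRARP was under HES1 in every KYSE450 library and above it in every KEAP1null-KYSE450 library. HEY2 went from 1.15% ± 0.11 to 2.57% ± 0.39 and HES4 from 20.8% ± 2.58 to 9.81% ± 1.99 (SD, n = 3 each). Most of the difference between the sums of the lines lay in NRARP alone, at 340.1 ± 41.9 and 1085 ± 128 normalized counts per kb. The order of NRARP and HES1 depended on the length used. With the length of the main transcript, HES1 stayed above NRARP in the edited line, with means of 1272 and 1085 normalized counts per kb. With 3 libraries against 3, an exact permutation test of one such value cannot give a two-sided p under 0.10, so these shares are given as values.

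Of the ligands, DLL1 rose, while JAG1 and JAG2 were lower on average without passing the test. DLL1, at chr6:170282206-170306565 on the minus strand, is a Delta-like ligand. Its normalized counts were 3031, 2346 and 1909.5 in KYSE450 and 3683, 3167 and 3083 in KEAP1null-KYSE450. The groups did not overlap, but the highest parental library lay just under the lowest edited one. The log2 fold change was 0.47 (SE 0.15, 95% interval 0.15 to 0.79, limma adjusted p = 0.018), a ratio of means of 1.36. The call was lost in 7 of 19 other settings, over which the adjusted p ran from 0.00022 to 1. It was 0.054 without the second KYSE450 library, 0.073 without the third and 0.070 without the first KEAP1null-KYSE450 library. FAM120B, on the opposite strand, shares 370 of the 3819 exon bases of DLL1, and whether the counting used strand is not given in the sources used here. FAM120B itself had 3538, 3159 and 3190 normalized counts in KYSE450 and 4013, 3481 and 3545 in KEAP1null-KYSE450 (log2 fold change 0.16, adjusted p = 0.20). Its part in the result for DLL1 was not tested.

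JAG1, at chr20:10637684-10673999 on the minus strand, is a Jagged-type ligand and had 4247, 3188 and 3159 normalized counts in KYSE450 and 3621, 2624 and 2590 in KEAP1null-KYSE450. The first library of each line was the highest, and the groups overlapped through it. Its log2 fold change was -0.27 (SE 0.15, 95% interval -0.59 to 0.05, limma adjusted p = 0.15). Without the first KEAP1null-KYSE450 library it was -0.42 with an adjusted p of 0.024, and without the first library of both lines -0.28 with an adjusted p of 0.0074, the lowest of a range that reached 1 over 19 other settings.

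JAG2, at chr14:105140982-105168824 on the minus strand, is the other Jagged ligand. Its normalized counts were 6647, 4769 and 4570.4 in KYSE450 and 4995, 4290 and 4311 in KEAP1null-KYSE450. Again the first library of each line was the highest. Its log2 fold change was -0.22 (SE 0.13, 95% interval -0.51 to 0.08, limma adjusted p = 0.20) and passed the test in 0 of 19 other settings, those by edgeR and DESeq2 included.

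The mixture of ligands differed between the lines in each library. A share within a library is unaffected by a factor common to all ligands of that library. Per kb of merged exons, JAG2 was 44.03%, 42.7% and 43.9% of the ligand sum in KYSE450 and 35.6%, 36.6% and 37.2% in KEAP1null-KYSE450. DLL1 was 33.6%, 35.2% and 30.8% in KYSE450 and 44%, 45.3% and 44.5% in KEAP1null-KYSE450. JAG1 was 19.96% ± 0.82 and 16.2% ± 1.38 (SD, n = 3 each), again with no overlap. The leading ligand was thus JAG2 in each KYSE450 library and DLL1 in each KEAP1null-KYSE450 library, and this order was kept with the length of the main transcript, where the mean shares of DLL1 were 28.6% and 39.4% and those of JAG2 41.1% and 35.3%. The ligand sum itself was 1911 ± 394 and 1945 ± 214 normalized counts per kb (SD, n = 3 each), with overlapping ranges. DLL3 added 3.30% ± 1.00 and 2.73% ± 0.19 (SD, n = 3 each), with a log2 fold change of -0.19 (limma adjusted p = 0.50). DLL4 was not detectable at this depth, with at most 1.07 normalized counts.

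**Figure D2:**
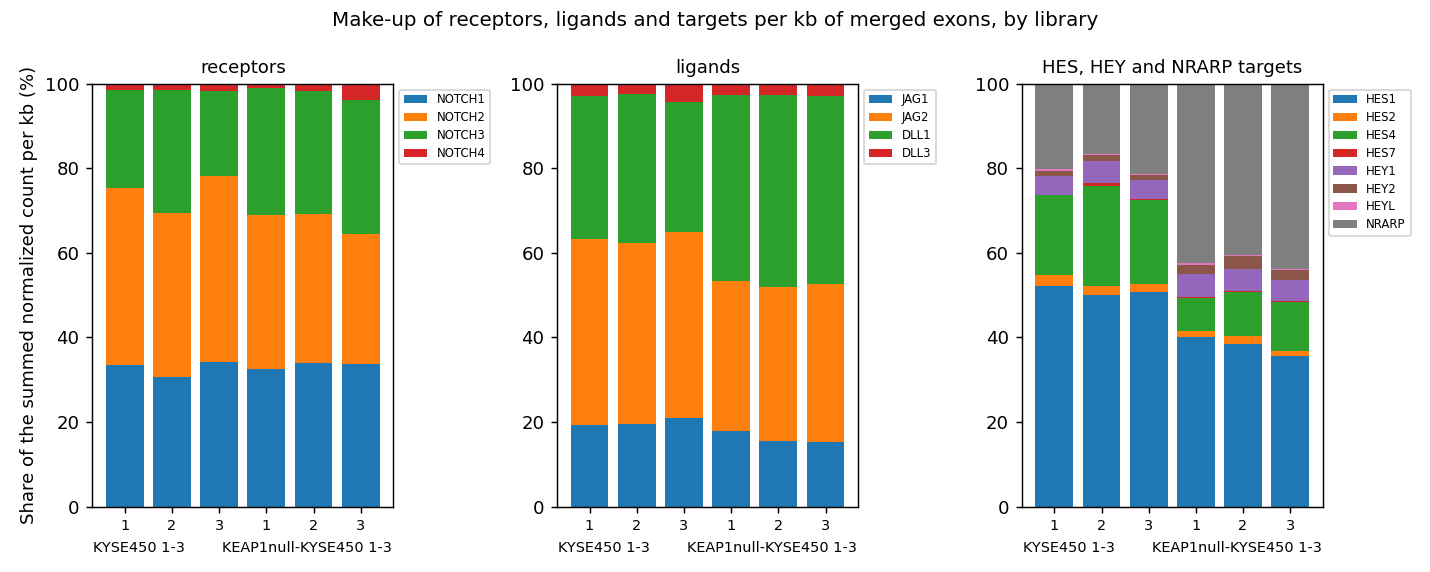
Share (%) of each gene in the summed normalized count per kb of merged exons of its class, in the 3 libraries of KYSE450 (left bars) and of KEAP1null-KYSE450 (right bars). JAG2 is the widest band of ligands in KYSE450 and DLL1 in KEAP1null-KYSE450, and NRARP grows from 16.5% to 21.4% of targets to 40.6% to 43.8%. Genes under 0.1% in every library are left out.

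The receptors did not pass the test. NOTCH1, at chr9:136494433-136546048 on the minus strand, had 2219, 1429 and 1368 normalized counts in KYSE450 and 1839, 1535 and 1314.5 in KEAP1null-KYSE450. Within each line the first library was the highest and the third the lowest, and the lines overlapped. The log2 fold change was -0.07 (SE 0.18, 95% interval -0.46 to 0.31, limma adjusted p = 0.75), and it turned positive under 5 of 19 other settings, among them 0.03 with the length trend of each library removed.

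NOTCH2, at chr1:119911553-120100779 on the minus strand, had 3712, 2409 and 2335.5 normalized counts in KYSE450 and 2740.5, 2132 and 1604 in KEAP1null-KYSE450. The first edited library lay above KYSE450 libraries 2 and 3. Its log2 fold change was -0.39 (SE 0.20, 95% interval -0.81 to 0.04, limma adjusted p = 0.12). It passed the test in 2 of 19 other settings, without the first KEAP1null-KYSE450 library (-0.57, adjusted p = 0.031) and without the first library of both lines (-0.36, adjusted p = 0.016), over a range of adjusted p up to 1. Near-identical copies of the start of NOTCH2 can divide its reads. Of the 4 copies in the table, 1 was tested, NOTCH2NLC, with 15.7 to 37.7 normalized counts, or 2.88 ± 0.65 and 2.87 ± 1.21 per kb (SD, n = 3 each) against 168 ± 46.3 and 129 ± 34.0 for NOTCH2.

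NOTCH3, at chr19:15159038-15200995 on the minus strand, had 1163, 1017 and 601 normalized counts in KYSE450 and 1269, 989.9 and 932 in KEAP1null-KYSE450. The third parental library stood apart below the rest. The log2 fold change was 0.24 (SE 0.21, 95% interval -0.21 to 0.69, limma adjusted p = 0.36) and -0.04 without that library. NOTCH4, which had the lowest share of the receptors per kb, had 71.7, 56.6 and 54.1 normalized counts against 48.0, 62.2 and 117 (log2 fold change 0.22, adjusted p = 0.60). Its sign changed in 4 other settings, among them -0.14 without the third KEAP1null-KYSE450 library.

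As shares of the receptor sum per kb, NOTCH2 was 41.9%, 38.7% and 43.8% in KYSE450 and 36.4%, 35.2% and 30.7% in KEAP1null-KYSE450. These do not overlap, although the counts of NOTCH2 did. NOTCH3 was 23.3%, 29.1% and 20.1% in KYSE450 and 29.9%, 29.1% and 31.8% in KEAP1null-KYSE450. NOTCH1 was at 32.8% ± 1.90 and 33.4% ± 0.69 (SD, n = 3 each). The receptor sum was 407 ± 110 and 374.5 ± 70.1 normalized counts per kb (SD, n = 3 each), so that no difference in the total amount of receptor mRNA was detectable over the spread of 3 libraries. In KYSE450 NOTCH2 had the largest share in each library. In KEAP1null-KYSE450 its mean of 34.1% ± 2.98 (SD, n = 3) did not differ from that of NOTCH1 beyond the spread, and in the third library it was under NOTCH1 (33.6%) and NOTCH3. This order depended on the length used. With the length of the main transcript, NOTCH2 had the largest share in each KEAP1null-KYSE450 library. Its shares there were 41.0%, 39.7% and 34.9%, against 32.8%, 34.1% and 34.1% for NOTCH1.

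Set in order of level per kb of merged exons, the members ran in KYSE450 from HES1 (895 ± 51.1), JAG2 (833 ± 179) and DLL1 (636 ± 148) through JAG1 (380 ± 66.7), NRARP (340.1 ± 41.9), NOTCH2 (168 ± 46.3), NOTCH1 (133 ± 37.9), NOTCH3 (98.5 ± 31.0) and HEY1 (83.5 ± 8.68) to HEY2 (20.1 ± 2.16), as mean ± SD of normalized counts per kb with n = 3. The libraries of HES1 and JAG2 overlapped, as did those of JAG2 and DLL1, of JAG1 and NRARP, and of each neighbouring pair from NOTCH2 down to HEY1. In KEAP1null-KYSE450 the order was NRARP (1085 ± 128), HES1 (973 ± 35.1), DLL1 (867 ± 85.0), JAG2 (708.5 ± 62.7), JAG1 (317 ± 63.0), HEY1 (132 ± 6.71), NOTCH2 (129 ± 34.0), NOTCH1 (125 ± 21.0), NOTCH3 (113 ± 19.1) and HEY2 (65.5 ± 8.56). There the neighbours from NRARP to DLL1 overlapped, and likewise those from HEY1 to NOTCH3. With the length of the main transcript the place of HEY1 changed. In KYSE450 HEY1 (209 ± 21.7) then lay between NOTCH2 (247 ± 67.8) and NOTCH1 (175 ± 49.6), overlapping both. In KEAP1null-KYSE450 HEY1 (330 ± 16.8) then lay above NOTCH2 (189 ± 49.8) with no overlap. In both lines every library of each ligand member lay above every library of each receptor member per kb, with either length.

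The rest of the pathway was described with 76 further genes in role lists, of which 66 were tested. Of these, 5 were higher and 10 lower past both thresholds, or 11 and 23 at the adjusted p alone, with a median log2 fold change of -0.18. Over all genes tested, 12.2% were higher and 5.98% lower past both thresholds, and 24.3% and 25.5% at the adjusted p alone. The counts of each list below are to be set beside these shares. Leaving out single libraries gave 4 to 5 higher and 7 to 11 lower past both thresholds, the lowest count of lower genes coming without the first KYSE450 library, and DESeq2 on 4 libraries gave 7 lower.

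Among the 9 genes of receptor cleavage, 1 was higher and 2 lower past both thresholds. FURIN, the protease that cuts the receptor precursor on its way to the surface, had 4016, 2851.5 and 2658 normalized counts in KYSE450 and 1609, 1315 and 1262 in KEAP1null-KYSE450, and fell with a log2 fold change of -1.17 (SE 0.15, limma adjusted p = 4.7e-05). The γ-secretase subunits did not move together. PSEN2, a catalytic subunit, fell with a log2 fold change of -1.07 (adjusted p = 2.7e-05). APH1B rose with a log2 fold change of 1.17 (adjusted p = 5.0e-04), from 114 ± 27.1 to 253 ± 15.1 normalized counts (SD, n = 3 each). Its paralog APH1A fell with a log2 fold change of -0.56 (adjusted p = 3.0e-04) and NCSTN, the substrate-docking subunit, with -0.71 (adjusted p = 0.0011). ADAM17, a shedding protease, rose with a log2 fold change of 0.65 (adjusted p = 4.9e-04), and ADAM10, the main such protease for ligand-bound NOTCH, was at -0.27 (adjusted p = 0.17). APH1A, NCSTN, ADAM10 and ADAM17 were chosen for mention after their values were seen. Near the fold threshold, FURIN was at -0.99 without the first KYSE450 library, PSEN2 at -0.97 with the length trend removed, and APH1B at 0.91 after quantile normalization and just under 1 without the third KYSE450 library. The exons of ADAM17 share 1645 of 15964 bases with IAH1 on the opposite strand, and those of PSEN2 share 6342 of 16397 with an unnamed gene on the same strand.

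Of the 9 glycosylation genes, 0 were higher and 3 lower past both thresholds, with a median log2 fold change of -0.50, and at the adjusted p alone 0 were higher and 6 lower, where 24.3% and 25.5% of all genes were. LFNG, a Fringe enzyme that extends O-fucose on the receptors and thereby sets which ligands they answer to, had 4723, 3822 and 3762 normalized counts in KYSE450 and 1704, 1205 and 1444 in KEAP1null-KYSE450. Every edited library was far below every parental one, and LFNG fell with a log2 fold change of -1.51 (SE 0.14, limma adjusted p = 2.2e-06). MFNG, another Fringe, fell with -1.75 (adjusted p = 0.032) at only 2.02 to 31.0 normalized counts. Its mean was 21.7 in KYSE450 and 6.4 in KEAP1null-KYSE450, so it passed the filter, a mean of 10, only through KYSE450. In KEAP1null-KYSE450 library 3 its value of 2.02 lay under the floor of 3 reads (3.03 normalized counts). The 3 genes counted as lower past both thresholds include MFNG. The call for MFNG was lost in 8 of 18 other settings, with an adjusted p of 0.11 without the first KYSE450 library, 0.054 without the second and 0.11 without the third KEAP1null-KYSE450 library, in a range from 0.0078 to 0.95. RFNG, the third Fringe, was at 0.03 (adjusted p = 0.85). GXYLT2, which adds xylose to the O-glucose chain, fell with -2.11 (adjusted p = 7.0e-05), from 271 ± 39.4 to 65.4 ± 24.7 normalized counts (SD, n = 3 each).

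In the nuclear complex of 7 genes, 3 were higher and 0 lower past both thresholds, and 2 were lower at the adjusted p alone. MAML3, a Mastermind-like coactivator, had 135, 110.2 and 125 normalized counts in KYSE450 and 1327, 1348 and 1122 in KEAP1null-KYSE450. Its ratio of means was 10.3 and its log2 fold change 3.35 (SE 0.15, limma adjusted p = 2.6e-09), the largest in size of all role-list genes tested. MAML3 shares 252 of its 6844 exon bases with MGST2 on the opposite strand. MGST2 had 1243, 1423 and 1445 normalized counts in KYSE450 and 2377, 2631 and 2483 in KEAP1null-KYSE450 and was higher as well (log2 fold change 0.87, adjusted p = 2.4e-05), and its part in the result for MAML3 was not tested. MAML2 rose with 1.28 (adjusted p = 3.7e-05) and MAML1 fell with -0.34 (adjusted p = 0.042), so that the family did not move as one. MAML1 passed in 8 of 19 other settings, over adjusted p from 0.019 to 1, and not without the first KYSE450 library (adjusted p = 0.12), without KEAP1null-KYSE450 library 2 (0.15) or 3 (0.10), nor after quantile normalization (0.19). Per kb of merged exons MAML1 was nonetheless the highest of the family in both lines, at 697.5 ± 138 and 545.1 ± 40.9 normalized counts (SD, n = 3 each), while MAML3 went from 18.01 ± 1.81 to 185 ± 18.2 and MAML2 from 57.6 ± 12.9 to 138.9 ± 15.0. KAT2B, an acetyltransferase that NOTCH complexes recruit, rose with 1.31 (adjusted p = 8.2e-06). RBPJ had 2627, 2744 and 2756 normalized counts in KYSE450 and 2408, 2374 and 2120 in KEAP1null-KYSE450, lower in each edited library, and missed the threshold (log2 fold change -0.24, adjusted p = 0.054). MAML1 and RBPJ were chosen for mention after their values were seen.

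**Figure D3:**
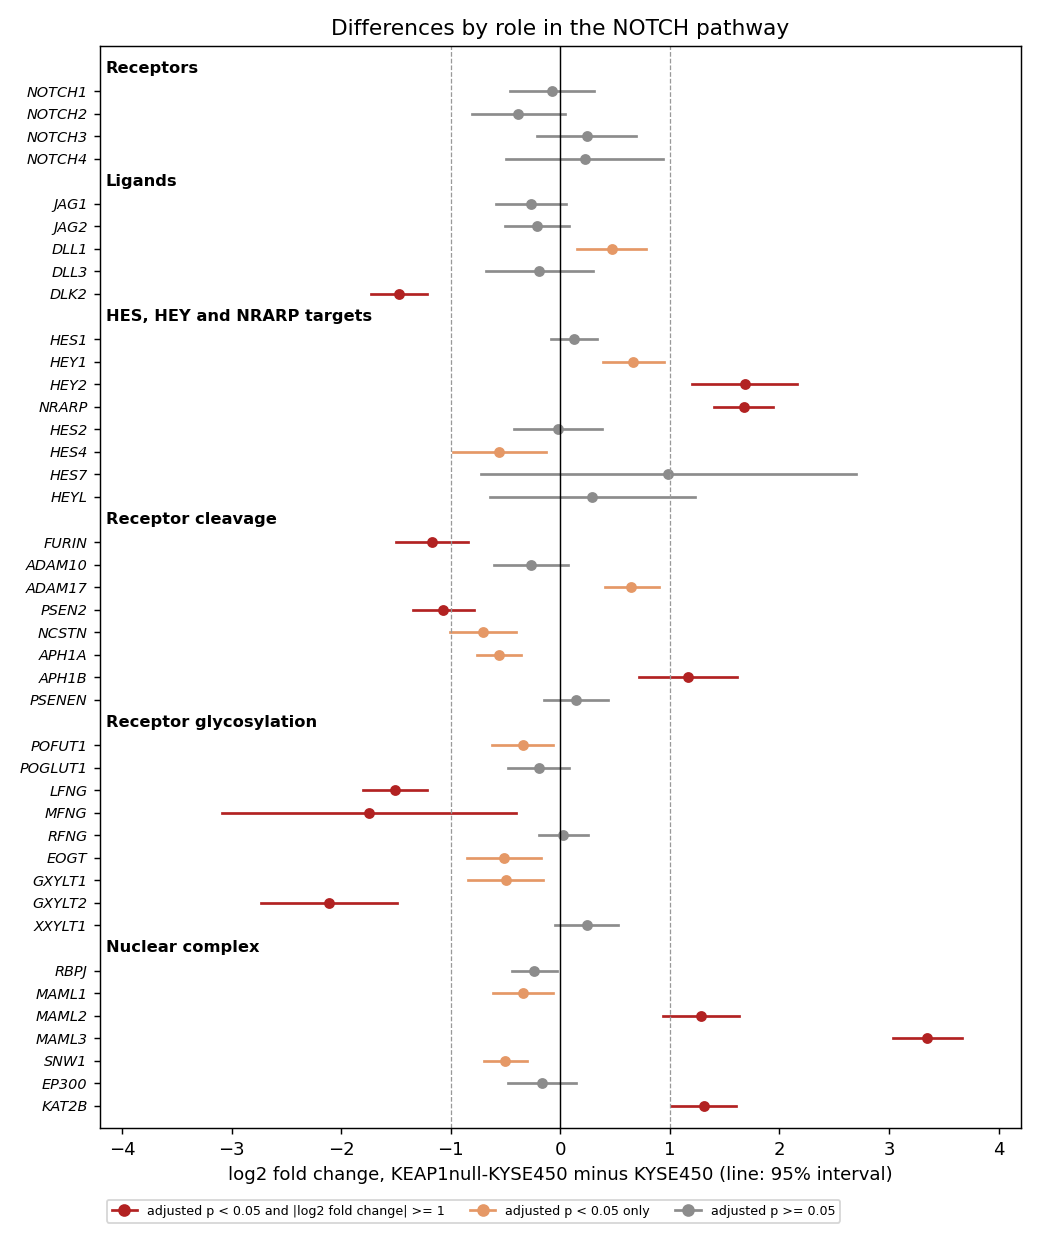
Log2 fold change (KEAP1null-KYSE450 minus KYSE450) with its 95% interval for members and other pathway genes grouped by role, coloured by the thresholds passed (dashed lines at -1 and 1). Receptors and Jagged ligands lie near 0. HEY2, NRARP, APH1B, MAML2 and KAT2B lie right of the dashed line at 1, and MAML3 lies farthest right. LFNG, MFNG, GXYLT2, FURIN, PSEN2 and DLK2 lie left of the dashed line at -1.

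Of the 5 further receptors and ligands tested, only DLK2 passed both thresholds. DLK2, a noncanonical Delta-like protein, had 1873, 1687 and 1507 normalized counts in KYSE450 and 652, 594 and 572 in KEAP1null-KYSE450, and fell with a log2 fold change of -1.47 (SE 0.12, limma adjusted p = 8.6e-07). ABCC10 shares 76 of the 2236 exon bases of DLK2 on the opposite strand and was lower too (log2 fold change -1.25, adjusted p = 1.1e-05). Its part in the result for DLK2 was not tested. Among 11 corepressor genes 0 were higher and 1 lower past both thresholds, TLE1, a Groucho-type partner of HES and HEY proteins, with -1.01 (adjusted p = 2.4e-05). It lay at the fold threshold, and in 11 of 18 other settings it kept the adjusted p with a log2 fold change of -0.99 to -0.89. Of the 9 tested genes of receptor turnover, 0 were higher and 1 lower past both thresholds, and 2 were higher and 3 lower at the adjusted p alone. DTX2, a Deltex ubiquitin ligase, fell with -1.48 (adjusted p = 4.8e-06), from 807 ± 95.6 to 288 ± 34.5 normalized counts (SD, n = 3 each). None of the 3 tested genes of ligand ubiquitination passed both thresholds, and 1 was higher at the adjusted p alone.

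Other genes that NOTCH can regulate in some tissues went both ways. Of 12 tested, 1 was higher and 2 lower past both thresholds, or 3 and 5 at the adjusted p alone. The shares over all genes tested were 12.2% and 5.98% past both thresholds, and 24.3% and 25.5% at the adjusted p alone. BHLHE41, a repressor related to the HES family, rose with a log2 fold change of 1.99 (limma adjusted p = 2.4e-06), from 24.6 ± 3.12 to 98.4 ± 9.17 normalized counts per kb of merged exons (SD, n = 3 each). Its paralog BHLHE40, chosen for mention after its values were seen, fell with -0.97 (adjusted p = 2.8e-04), from a higher level of 1105 ± 277 to 553 ± 47.0 per kb. SSPN shares 162 of the 3854 exon bases of BHLHE41 on the opposite strand and was higher too (log2 fold change 2.41, adjusted p = 3e-07). Its part in the result for BHLHE41 was not tested. SOX9, a progenitor-type transcription factor, fell with -1.40 (adjusted p = 0.0069) and CDKN1A, a cyclin-dependent kinase inhibitor, with -1.22 (adjusted p = 6.0e-05). SOX9 missed the threshold with DESeq2 on 4 libraries (adjusted p = 0.055, in a range of 9.5e-04 to 1). PAX9, a transcription factor of the differentiating esophageal epithelium, had 1594, 1507 and 1436 normalized counts in KYSE450 and 2205, 2419 and 2301 in KEAP1null-KYSE450. It rose with 0.61 (SE 0.10, adjusted p = 2.5e-04), under the fold threshold, and shares 1442 of its 5682 exon bases with SLC25A21.

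The position of a gene can matter where a stretch of a chromosome differs between clones, so the medians of up to 20 tested genes on each side were compared. Around NRARP the median log2 fold change of 31 neighbours was -0.09 and around HEY2, with 40 neighbours, 0.26, against 1.67 and 1.68 for these genes themselves. Of the neighbours of HEY2, 19 were higher and 7 lower at the adjusted p alone, and of those of NRARP 5 and 7. Around HEY1 the median was 0.11 over 40 neighbours and 0.54 over 10 on each side, the latter close to its own value, with 11 of the 40 higher and 7 lower. For DLL1 the median of 24 neighbours was 0.21 and that with up to 10 on each side 0.38, near its own value, with 8 of the 24 higher and 2 lower. With up to 40 on each side the median was 0.15, and among neighbours with a mean of at least 100 it was -0.25, of opposite sign to DLL1. Around NCSTN the median of 40 neighbours was -0.68, nearly that of NCSTN itself, with 23 of them lower and 3 higher at the adjusted p alone. For APH1A the median was -0.40, with 22 lower and 5 higher, and for DLK2 it was -0.47, with 24 lower and 3 higher. The lower values of NCSTN, APH1A and DLK2 thus came with lower values of the genes beside them. NCSTN itself was at -0.71, APH1A at -0.56 and DLK2 at -1.47, the last well below the median of its neighbours. Over all genes tested, 25.5% were lower and 24.3% higher at the adjusted p alone. The part of chromosomal position in these results was not tested.

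**Figure D4:**
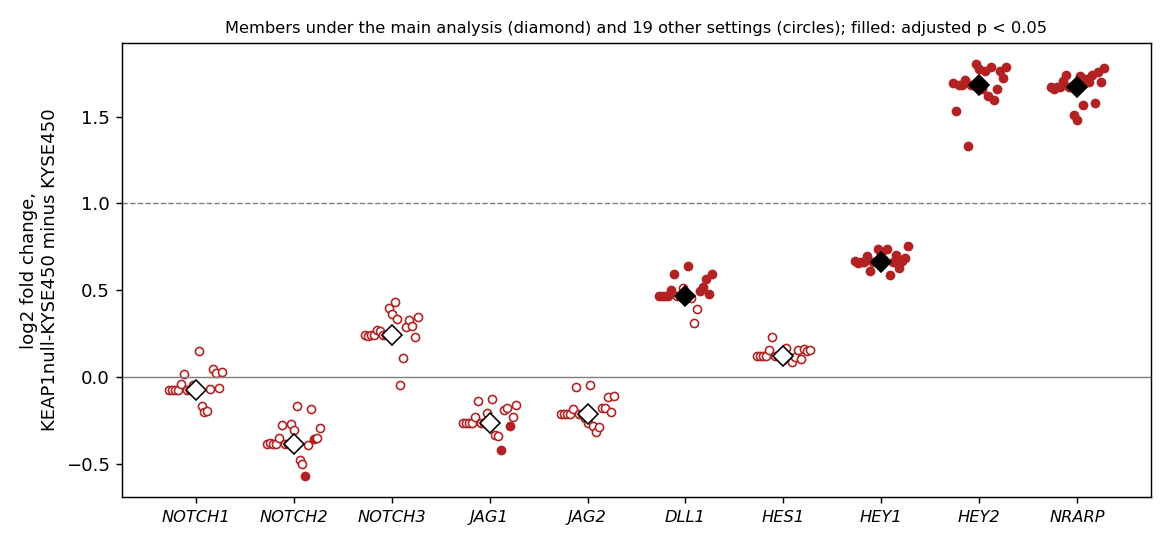
Log2 fold change of each member in the analysis reported (diamond) and in 19 other settings (circles), filled where the adjusted p was under 0.05, with lines at 0 and 1. NRARP is filled throughout, HEY2 and HEY1 in 18 of 19 other settings and DLL1 in 12, while NOTCH1 lies on both sides of 0.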

How the data were processed

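RNA of KYSE450 and KEAP1null-KYSE450 cells (3 libraries each) was sequenced. By the labels and the study's methods, the authors used FastQC 0.11.5, cutadapt 1.12, STAR 2.6.90c and featureCounts 1.5.1 with hg38, and the deposited values are normalized counts, a signal scaled between libraries and not raw counts. RefSeq is the annotation named in the methods, but rows of the table carry Ensembl identifiers, 273 of 58884 without a symbol. For a symbol with several rows, that of the highest mean was taken. Strand use in counting is not given in the sources used here.

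Values were tested as log2(normalized count + 1) with limma 3.58.1 under R 4.3.3 (linear fit, empirical Bayes with an intensity trend) in 16701 genes whose mean reached 10, two-sided, with Benjamini-Hochberg adjustment over all of them. Fold changes are on this scale, which understates those of low genes. Thresholds were an adjusted p under 0.05 and a log2 fold change of at least 1 in size. In each library 100% of values were whole multiples of one step (within 0.01 reads), which gave 53027359 to 61543442 reads per library. In 1 library of each line the step lay too close to 1 to accept, so edgeR (4.0.16) and DESeq2 (1.42.0) ran on whole reads of the other 4 and called 1840 genes higher and 877 lower, and 1633 and 881. Other settings were other pseudocounts and filters, rescaling, quantile normalization, eBayes without trend, a test against the fold threshold and each library left out. Others were added after seeing the data: edgeR on all 6 libraries, the first library of each line left out, and removal of each library's length trend. The fits were tested on simulated data. Floors of 3 reads cover counting error only. Lengths and positions come from gencode v44, sequences from RefSeq.

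The members and gene lists were chosen with earlier results of these data known. Named were all members, role-list genes past both thresholds (up to 5 in each direction per list), the rest of the NOTCH, DLL, HES and HEY families as listed, PAX9, KEAP1 and NQO1. Of the listed genes, 1 is counted with its list and not reported here.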

Additional observations from a re-analysis of the deposited data

How the results depend on the processing

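No paired analysis was possible because the columns carry no replicate number. Of 603 values of 32 named genes under 19 other settings, 553 kept their direction and their side of the adjusted p of 0.05, 27 lost the call, 4 gained it and 19 changed sign. The test against a log2 fold change of 1 left 626 genes higher and 395 lower, 1 member higher (NRARP, by both criteria), and 2 other pathway genes higher and 4 lower, as its construction implies. A mean of at least 100 left 875 genes higher against 683 lower, and quantile normalization gave 1388 and 1289 in place of 2045 and 999, or 51.8% of calls higher in place of 67.2%. Without the first KEAP1null-KYSE450 library, or without the first of both lines, 2 members (NOTCH2 and JAG1) were lower at the adjusted p alone. Over the libraries left out, that count ran from 0 to 2.

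Signs changed as follows, and the cause was not tested. NOTCH1 was at 0.017 after quantile normalization, 0.023 without the first libraries and 0.027 without the length trend. NOTCH4 was at -0.196 after quantile normalization, -0.154 with edgeR and -0.185 with DESeq2 on 4 libraries, and HEYL at -0.216 after quantile normalization. KEAP1 was at 0.016 after rescaling, 0.135 after quantile normalization, 0.011 with edgeR on 6 libraries and 0.088 without the length trend. With single libraries left out, NOTCH1 ran from -0.202 to 0.147, NOTCH3 from -0.045 to 0.430, NOTCH4 from -0.140 to 0.494, HES7 from -0.011 to 1.823, HEYL from -0.110 to 0.595 and KEAP1 from -0.072 to 0.040.

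With main transcript lengths the share of NOTCH2 was 45.9% and 38.5% and that of JAG2 41.1% and 35.3% in KYSE450 and KEAP1null-KYSE450. The median around HEY2 was 0.14 with 40 genes on each side, around NCSTN -0.52 with 40, and around APH1A -0.68 with 10 and -0.54 with a mean of at least 100.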
